A study of Mus musculus with 26 samples.

Results

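The 10 genes described here are transcription factors of the oligodendrocyte lineage: Sox10, Myrf, Olig1, Olig2, Nkx2-2, Nkx6-2, St18, Zfp536, Sp7 and Zeb2. They were chosen by name, and all 10 were found by their Ensembl identifier among the 27501 gene identifiers of the count table. RNA was sequenced in 26 libraries made from the whole brain, and the mice were between 6 and 12 weeks old. All animals carried a transgene that encodes a fusion of enhanced green fluorescent protein with the ribosomal protein Rpl10a. Its driver was Snap25 in the neuron line, with the transgene Tg(Snap25-EGfp/Rpl10a)JD362Htz, Aldh1l1 in the astrocyte line, with Tg(Aldh1L1-EGfp/Rpl10a)JD130Htz, and Cnp in the oligodendrocyte line, with Tg(Cnp-EGfp/Rpl10a)JD368Htz, and all 3 lines were on the B6.FVB background. The driver therefore set which cells of a brain were tagged. Each line gave sorted nuclei, named here by the cell type of the line, and presort nuclei, labelled as mixed cells, with 4 libraries per group, 2 from females and 2 from males, each replicate from 1 mouse. The remaining 2 libraries held whole-brain cytoplasmic RNA, replicate 1 from a male of the astrocyte line and replicate 2 from a female of the oligodendrocyte line. No agent was given to any group, as far as the labels say.

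Oligodendrocytes wrap axons in myelin, and they arise from precursor cells that persist in the adult brain. Olig2 and Olig1 (basic helix-loop-helix factors) and Nkx2-2 (a homeodomain factor) act in specifying and maturing the lineage, and Sox10 (an HMG-box factor) is needed for terminal differentiation. Sox10 induces Myrf, a membrane-bound factor that is cleaved to release its DNA-binding part, and both bind enhancers of myelin genes. Zeb2, a zinc finger repressor, promotes myelination by inducing inhibitors of BMP signalling such as Smad7, and Nkx6-2 is needed for normal contacts between axons and glia. St18, Zfp536 and Sp7 are zinc finger factors, and Sp7 is best known from bone, where it drives osteoblast formation.

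The genes differed widely in length and structure. In GENCODE M21 (GRCm38), Olig1 (ENSMUSG00000046160, chr16:91269772-91271933, plus strand) is a single exon of 2.16 kb, and Olig2 (ENSMUSG00000039830, chr16:91225457-91228677, plus strand) lies 41.1 kb from it. Sox10 (ENSMUSG00000033006, chr15:79154908-79165240, minus strand) and Sp7 (ENSMUSG00000060284, chr15:102356606-102367182, minus strand) span 10.3 and 10.6 kb. Nkx6-2 (ENSMUSG00000041309, chr7:139579376-139582797, minus strand) spans 3.42 kb, Nkx2-2 (ENSMUSG00000027434, chr2:147177546-147194243, minus strand) 16.7 kb and Myrf (ENSMUSG00000036098, chr19:10208272-10240748, minus strand) 32.5 kb. The remaining genes are long: Zeb2 (ENSMUSG00000026872, chr2:44983632-45117395, minus strand) spans 134 kb, Zfp536 (ENSMUSG00000043456, chr7:37472135-37773641, minus strand) 302 kb and St18 (ENSMUSG00000033740, chr1:6487231-6860940, plus strand) 374 kb with 29 exon blocks. Nkx6-2 shares 246 exonic bases with Inpp5a on the opposite strand. Nkx2-2 overlaps the antisense gene 6430503K07Rik without shared exonic bases, and Olig1 shares 157 with Gm15966, which had 0 counts in every library. The antisense genes Nkx2-2os and Zeb2os share 278 and 653 exonic bases with their partners and were not analysed here. The library kit keeps no strand, so reads of such overlapping pairs cannot be fully told apart.

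Promoter sequence is shown for 3 genes on which the comparisons turn: Olig2 and Nkx2-2, which also had counts in astrocyte nuclei, and Zeb2, one of the highest per exonic length. They are the parts of RefSeq promoter windows of 250 bases upstream of a start (GRCm38.p6) that lie in no annotated exon, written 5′ to 3′ on the gene's strand. The RefSeq promoter table held 5 of the 10 genes. Capitals mark E-boxes (CANNTG, the core recognised by basic helix-loop-helix factors such as the Olig proteins), and 66.2% of 32534 promoter windows of that length hold at least 1. The Olig2 stretch (chr16:91225300-91225456, plus strand) ends 93 bases before the RefSeq start and holds 0. The Nkx2-2 stretch (chr2:147186456-147186652, minus strand) ends 53 bases before the start and holds 3, of which the middle one overlaps a match to TNAAGTG, a core of Nkx2 factors present in 3258 of the 32534 windows. This RefSeq start is internal to the GENCODE span of Nkx2-2 given above, so the stretch lies within that span and not upstream of it. The Zeb2 stretch (chr2:45117443-45117692, minus strand) reaches the start and holds 0. Its window also held no match to ACAAT, a core of Sox factors found in 27.4% of windows, whereas the windows of Nkx2-2 and Olig2 held 1 each. Both strands were searched, and a match is a description of these letters only.
Olig2: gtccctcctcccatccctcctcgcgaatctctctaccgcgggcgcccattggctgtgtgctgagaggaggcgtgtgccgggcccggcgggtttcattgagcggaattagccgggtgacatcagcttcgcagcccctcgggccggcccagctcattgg
Nkx2-2: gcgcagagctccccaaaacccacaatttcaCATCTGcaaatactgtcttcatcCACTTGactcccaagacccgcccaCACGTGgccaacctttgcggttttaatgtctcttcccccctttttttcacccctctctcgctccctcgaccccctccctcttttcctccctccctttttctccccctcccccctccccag
Zeb2: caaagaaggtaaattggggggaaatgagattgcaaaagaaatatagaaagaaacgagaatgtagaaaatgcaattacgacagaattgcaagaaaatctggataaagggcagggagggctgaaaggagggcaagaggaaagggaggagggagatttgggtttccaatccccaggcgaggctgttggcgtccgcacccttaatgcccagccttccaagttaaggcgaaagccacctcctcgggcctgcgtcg

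Sorted libraries held 1602594 to 3239445 counts, except sorted astrocyte replicate 30 with 134357. Presort libraries held 147826 to 313720, except presort astrocyte-line replicate 29 with 3274488, and the cytoplasmic ones 3885312 and 4461568. A second library stood apart: sorted oligodendrocyte replicate 36 had 7674 genes detected against 11136 to 17984 in all others, and it had 0 counts of Olig2, Nkx2-2, Nkx6-2 and the green fluorescent protein. The driver genes followed the labels, whereas the tag did not do so in the oligodendrocyte line. Counts of the green fluorescent protein were 0 to 52.9 CPM in sorted oligodendrocyte nuclei and 57.5 to 96.2 in presort nuclei of that line, against 354 to 579 in sorted neurons and 327 to 847 in sorted astrocytes. Levels are given in CPM, a gene's counts scaled to the total of its library. Cnp was at 1531 ± 652 CPM (SD, n = 4 here and below) in sorted oligodendrocyte nuclei against 50.1 ± 17.4 in neurons and 69.7 ± 14.0 in astrocytes. Snap25 was at 988 ± 277 CPM in neurons against 205 ± 170 in oligodendrocytes and 130 ± 64.6 in astrocytes, and Aldh1l1 at 233 ± 71.7 in astrocytes against 4.84 ± 1.79 and 7.13 ± 4.51 in neurons and oligodendrocytes. Myelin and maturation genes (23 genes) summed to 36038 to 45219 CPM per library in sorted oligodendrocyte nuclei, 1578 to 2077 in neurons and 1582 to 2657 in astrocytes.

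The 10 factors together made up 4300 to 5929 CPM in sorted oligodendrocyte nuclei, 699 to 814 in sorted neurons, 512 to 715 in sorted astrocytes, 844 to 1366 in presort nuclei and 702 to 1032 in cytoplasm. Which regions of a gene were counted is not given in the sources used here. Divided by exonic length, the level in sorted oligodendrocyte nuclei was highest for Zeb2 (119 ± 8.47 CPM per exonic kb) and St18 (119 ± 9.75), followed by Olig1 (111 ± 26), Sox10 (85.9 ± 38.3), Zfp536 (82.2 ± 27.3) and Myrf (73.5 ± 19.4). In this order each of these 6 genes differed from the next by less than the larger of the 2 SDs. Olig2 followed at 35 ± 23.9 CPM per exonic kb, and its distance to Myrf above and to Nkx2-2 below exceeded both SDs. Nkx2-2 (6.16 ± 4.44), Sp7 (4.21 ± 2.03) and Nkx6-2 (3.83 ± 3.73) were lowest and did not differ beyond their spread.

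**Figure D1:**
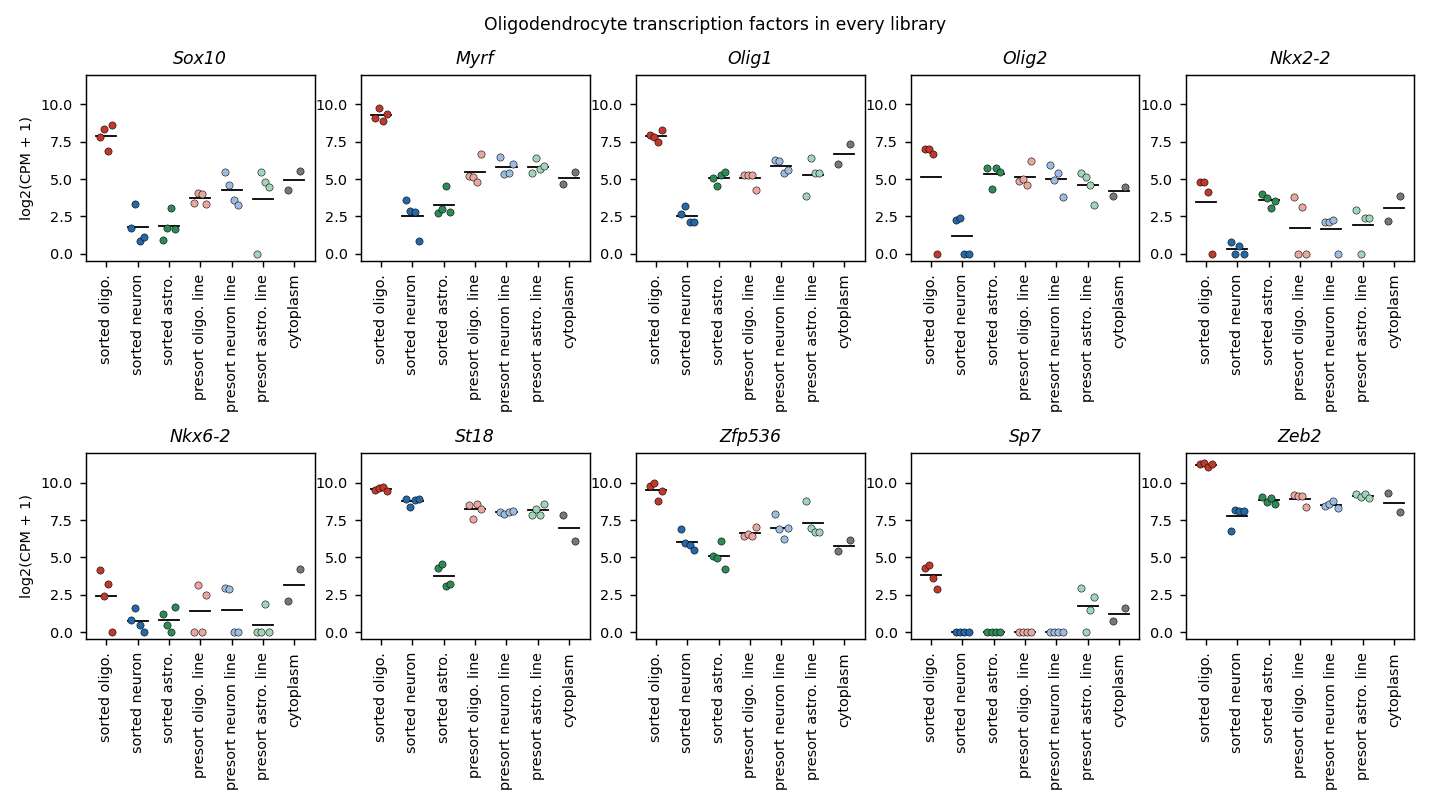
Each panel shows 1 gene, each point 1 library, and the y axis log2(CPM + 1); horizontal bars are group means of the points. Sorted oligodendrocyte libraries of Sox10, Myrf, Olig1, St18, Zfp536, Sp7 and Zeb2 lie above every other sorted library, whereas Olig2, Nkx2-2 and Nkx6-2 have 1 oligodendrocyte library at 0.

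The first question was how the factors differ among sorted cell types. Of the 10, 7 stood above both other types. Against neurons, 9 of the 10 factors were called higher in oligodendrocyte nuclei at an adjusted p under 0.05 in edgeR, where 12.4% of 13029 tested genes were called higher, and Nkx6-2 did not pass the filter on low counts. Against astrocytes 7 were called higher (7.49% of all genes). Those called against both types were Sox10, Myrf, Olig1, St18, Zfp536, Sp7 and Zeb2, and 5.39% of tested genes met both. The groups did not overlap for 7 factors over neurons (7.41% of genes) and 7 over astrocytes (6.08%), and the same 7 had every oligodendrocyte library above every other sorted library (4.22%). Sp7 had counts in oligodendrocyte nuclei alone among sorted groups, so it passed the filter only through the group where it was high. The same held for Sox10, which was too low for the filter in most neuron and astrocyte libraries. The calls of both are therefore descriptions and not independent support. The median log2 fold change of the 9 tested factors was 5.92 over neurons (5.70 with Sp7 at its lower bound) and 4.77 over astrocytes, against -0.16 and -0.11 for all tested genes. The TMM factors that enter these fold changes raise oligodendrocyte values by 0.41 over neurons and 0.25 over astrocytes on the log2 scale. With total counts alone, 1132 genes were higher and 1614 lower than in neurons, against 1610 and 1395 with TMM.

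Sox10 was at 222, 322, 119 and 386 CPM in sorted oligodendrocyte replicates 10, 12, 34 and 36. Neuron nuclei (replicates 2, 4, 26 and 28) had 2.26, 9.19, 0.830 and 1.14 CPM, and astrocyte nuclei (replicates 6, 8, 30 and 32) 0.853, 2.34, 7.44 and 2.16. Every oligodendrocyte library thus lay far above every other sorted one. The log2 fold change was 6.81 ± 0.82 (SE, adjusted p = 2.18e-05) over neurons and 7.29 ± 0.89 (adjusted p = 2.82e-05) over astrocytes. Neurons and astrocytes did not differ in Sox10 beyond the spread (0.48 ± 0.80, adjusted p = 0.772), and the sign of that value turned without sorted neuron replicate 4 (-0.64).

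Myrf, the factor that Sox10 induces, was at 540, 852, 473 and 653 CPM in oligodendrocyte nuclei. It was at 10.9, 6.26, 5.81 and 0.763 CPM in neurons and at 5.54, 7.03, 22.3 and 5.87 in astrocytes, where 22.3 is 3 counts in the shallow replicate 30. The groups were far apart, with log2 fold changes of 7.15 ± 0.69 over neurons (adjusted p = 2.60e-06) and 6.66 ± 0.71 over astrocytes (adjusted p = 7.04e-06). Across the 12 sorted libraries, Myrf and Sox10 had the highest correlation of any of 36 pairs of tested factors (Pearson r of log2(CPM + 1) = 0.97). This describes 12 libraries in 3 groups, and the median over pairs was 0.60.

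Olig1 and Olig2, neighbours on chromosome 16, differed in how they separated the types. Olig1 was at 241, 226, 176 and 312 CPM in oligodendrocyte nuclei, 5.27, 8.35, 3.32 and 3.43 in neurons, and 32, 22.3, 37.2 and 43.2 in astrocytes. None of the 3 groups overlapped, with oligodendrocytes highest and neurons lowest. Olig1 was higher in oligodendrocytes than in neurons by 6.03 ± 0.55 (adjusted p = 1.51e-06) and than in astrocytes by 3.14 ± 0.49 (adjusted p = 0.000225) on the log2 scale. It was lower in neurons than in astrocytes (-2.89 ± 0.50, adjusted p = 0.000561).

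Olig2 was at 126, 128, 100 and 0 CPM in oligodendrocyte nuclei, the 0 being replicate 36, where 3 counts would be 1.87 CPM. Neurons had 3.77, 4.18, 0 and 0 CPM, and astrocytes 51.6, 19.5, 52.1 and 43.8. Without replicate 36 the 3 groups did not overlap, whereas with it the oligodendrocyte group reached below the astrocyte group and down to the 0 of 2 neuron libraries. Olig2 was higher in oligodendrocytes than in neurons (5.70 ± 1.25, adjusted p = 0.00354). Against astrocytes the log2 fold change was 1.21 ± 1.02 (adjusted p = 0.522). Without replicate 36 it was 1.65 ± 0.54 (adjusted p = 0.0305), and in males alone, to which that library does not belong, 1.95 (adjusted p = 0.0101). Olig2 was lower in neurons than in astrocytes (-4.49 ± 1.21, adjusted p = 0.0135).

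Nkx2-2 was at 26.9, 27.2, 16.8 and 0 CPM in oligodendrocyte nuclei and at 14.9, 12.5, 7.44 and 10.5 in astrocytes, so that the 3 oligodendrocyte libraries with counts lay above all astrocyte ones. Neurons had 0.754, 0, 0.415 and 0 CPM, which is 3 counts in all. Summed over libraries, oligodendrocytes had 181 counts and 65.3 times the neuron level (95% interval from counting 22.0 to 319). The fitted log2 fold change over neurons was 5.92 ± 1.08 (adjusted p = 0.000941), and that over astrocytes 0.66 ± 0.80 (adjusted p = 0.695, and 0.102 without replicate 36). In females alone it was -0.10. Like Olig2, Nkx2-2 was lower in neurons than in astrocytes (-5.26 ± 1.09, adjusted p = 0.00228). The overlapping antisense gene 6430503K07Rik was at 26.5 ± 24.7 CPM in oligodendrocytes, 12.2 ± 2.91 in astrocytes and 0.0942 ± 0.188 in neurons.

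Precursor cells express Olig1, Olig2 and Nkx2-2 as well, and their markers were measured beside these factors. The 9 precursor markers in the table summed to 2407 to 3449 CPM in sorted astrocyte nuclei, 118 to 262 in oligodendrocytes and 177 to 263 in neurons. No marker of the list was at 0 in every library of a sorted group. Ptprz1 (2503 ± 350 CPM in astrocytes) and Vcan (487 ± 135) made up most of the astrocyte sum, so that sum does not describe the rest of the list. Of 8 tested markers, 1 was higher in oligodendrocytes than in astrocytes and 2 were lower, and 2 were higher than in neurons and 1 lower. Gpr17, a receptor of committed precursors, was the one higher over astrocytes, at 50.8 ± 19.5 CPM in oligodendrocytes, 4.50 ± 2.41 in astrocytes and 6.14 ± 2.65 in neurons. Pdgfra, the receptor that defines precursors, was at 32 ± 33.6 CPM in astrocytes, 11 ± 10.3 in oligodendrocytes and 6.08 ± 1.95 in neurons. Its astrocyte median was 18.6 CPM, and the highest astrocyte value, 81.9, came from the shallow replicate 30. Cspg4 was at 14.4 ± 5.67 CPM in astrocytes, 6.70 ± 4.82 in oligodendrocytes and 4.64 ± 4.70 in neurons. Tnr went another way, at 67.3 ± 15.1 CPM in neurons, 13.1 ± 7.36 in astrocytes and 10.2 ± 7.17 in oligodendrocytes. The means of C1ql1, Neu4 and Matn4 in sorted groups were at most 5.96 CPM (C1ql1 in astrocytes). The part of precursor cells in the levels of Olig1, Olig2 and Nkx2-2 was not tested. In these bulk libraries, fewer cells of a type and less RNA per cell cannot be told apart.

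Nkx6-2 had too few counts for the main test, with 16.7, 4.29, 8.20 and 0 CPM in oligodendrocyte nuclei. Neurons had 0 to 2.09 CPM and astrocytes 0 to 2.16, so 3 oligodendrocyte libraries lay above all sorted neuron and astrocyte ones. Presort libraries had 0 to 7.70 CPM, and cytoplasm 3.14 and 18.0. Its summed counts were 80 in oligodendrocytes, 8 in neurons and 11 in astrocytes, which gives ratios of 10.8 (95% interval from counting 5.23 to 25.9) and 6.46 (3.43 to 13.5). With no filter on low counts the log2 fold change was 3.38 ± 0.97 over neurons (adjusted p = 0.0139) and 2.58 over astrocytes (adjusted p = 0.0843, and 0.00872 without replicate 36).

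Sp7 was at 18.4, 21.5, 11.2 and 6.24 CPM in oligodendrocyte nuclei and at 0 in all 8 sorted neuron and astrocyte libraries. Against a floor of 3 counts over each group it was at least 50.1-fold higher than in neurons (36.9-fold without sorted neuron replicate 2) and at least 41.2-fold higher than in astrocytes. The bound over astrocytes fell to 25.1-fold without sorted astrocyte replicate 32. Sp7 was also at 0 in all presort libraries of the neuron and oligodendrocyte lines, where 3 counts over the group correspond to 2.73 and 2.85 CPM. It had 6.76, 0, 1.83 and 4.19 CPM in presort nuclei of the astrocyte line (replicates 5, 7, 29 and 31) and 0.672 and 2.06 CPM in cytoplasm.

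St18, the longest of the genes, had many counts in neurons as well. It was at 744, 810, 824 and 688 CPM in oligodendrocyte nuclei, 475, 326, 465 and 490 in neurons and 18.3, 22.3, 7.44 and 8.33 in astrocytes. The 3 groups did not overlap, with oligodendrocytes highest and astrocytes lowest. St18 was higher in oligodendrocytes than in astrocytes by 5.88 ± 0.44 (adjusted p = 4.49e-07) and higher in neurons than in astrocytes by 4.67 ± 0.42 (adjusted p = 3.12e-06) on the log2 scale. The difference between oligodendrocytes and neurons was 1.22 ± 0.36 (adjusted p = 0.0204). It did not pass with total counts in place of TMM (0.80, adjusted p = 0.110) or without sorted neuron replicate 4, 26 or 28 (adjusted p = 0.0895, 0.0618 and 0.0507).

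Zfp536 was at 867, 1031, 443 and 689 CPM in oligodendrocyte nuclei, 116, 61.4, 56.9 and 44.2 in neurons and 33.7, 30.1, 67.0 and 17.6 in astrocytes. Oligodendrocytes stood apart, and neurons and astrocytes overlapped. Its log2 fold changes were 3.86 ± 0.48 over neurons (adjusted p = 3.31e-05) and 4.77 ± 0.52 over astrocytes (adjusted p = 9.07e-06). Neurons exceeded astrocytes by 0.92 ± 0.46 (adjusted p = 0.205), which passed in males alone (1.32, adjusted p = 0.0344).

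Zeb2 was at 2443, 2506, 2129 and 2431 CPM in oligodendrocyte nuclei, 110, 281, 272 and 274 in neurons and 517, 415, 514 and 378 in astrocytes. The 3 groups did not overlap, and replicate 2 was the lowest neuron library. Zeb2 was higher in oligodendrocytes by 3.80 ± 0.36 over neurons (adjusted p = 2.01e-06) and by 2.66 ± 0.34 over astrocytes (adjusted p = 4.14e-05). It was lower in neurons than in astrocytes (-1.14 ± 0.33, adjusted p = 0.0201), a call lost without sorted neuron replicate 2, 4 or 26 or sorted astrocyte replicate 6 (adjusted p = 0.0517 to 0.0752). Zeb2 is also expressed in microglia. The 12 microglia markers summed to 6.24 to 162 CPM in sorted oligodendrocyte nuclei, 35.8 to 79.3 in neurons and 54.1 to 91.0 in astrocytes, so the groups overlapped. Ptprc was at 8.52 ± 6.21 CPM in oligodendrocytes, 0.188 ± 0.377 in neurons and 0 in all sorted astrocyte libraries. Of 7 tested microglia markers, 1 was higher in oligodendrocytes than in neurons and 1 than in astrocytes, and 0 were lower in either. Of all genes, 12.4% and 7.49% were higher. Their part in the Zeb2 differences was not tested. The 8 endothelial markers summed to 0 to 158 CPM in oligodendrocytes, 13.3 to 32.8 in neurons and 36.7 to 120 in astrocytes. Of 7 tested, 5 were higher in oligodendrocytes than in neurons and 0 than in astrocytes, and their part in the factors was not tested.

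**Figure D2:**
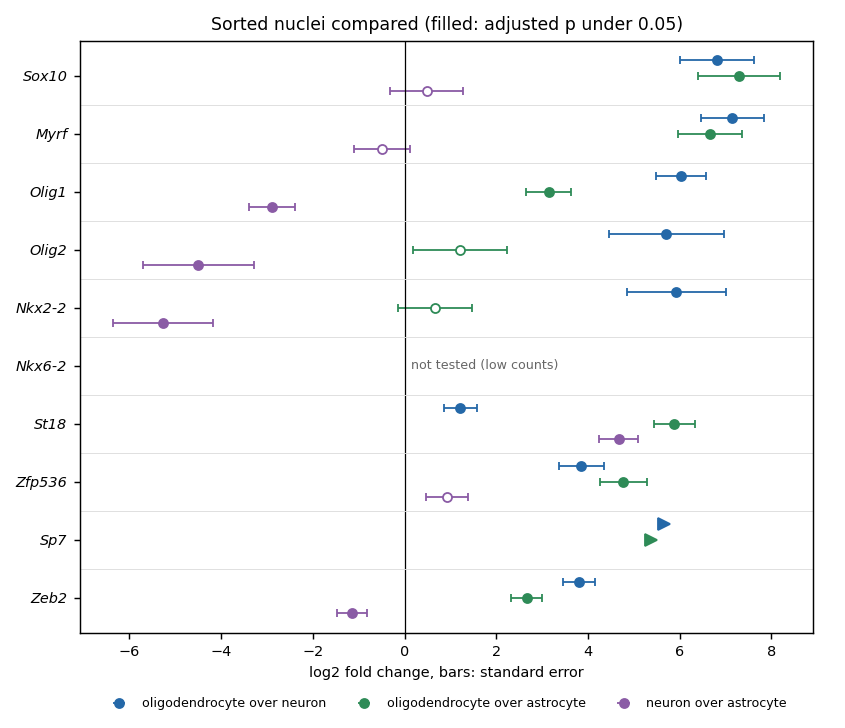
The x axis is the log2 fold change among sorted nuclei with its standard error, filled points passed at an adjusted p under 0.05 in edgeR, and triangles are lower bounds for Sp7. Differences over neurons and over astrocytes are both far to the right for Sox10 and Myrf, whereas Olig2 and Nkx2-2 did not pass over astrocytes and St18 lies nearest to 0 over neurons.

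Between the types that are not oligodendrocytes, 1 factor was higher in neurons (St18) and 4 were lower (Olig1, Olig2, Nkx2-2 and Zeb2), against 8.02% and 11.4% of all genes. Sex coincides with the block of replicate numbers, so both library sets were fitted apart. In males alone, all 10 factors were called higher over neurons and 9 over astrocytes. In females alone, where both libraries that stood apart belong, 4 and 1 were called of 9 tested. The log2 fold change of Sox10 over neurons was 5.91 in males and 8.63 in females, that of Zeb2 4.0 and 3.66, and that of St18 1.24 and 1.21 (adjusted p = 0.0220 and 0.442). Without sorted oligodendrocyte replicate 36 and sorted astrocyte replicate 30, a choice made after seeing the data, 10 were called over neurons and 8 over astrocytes. Calls over all genes fell in females alone as well, so the lower counts there are not particular to the factors. Shares of all genes were not set beside the counts of these fits, which are descriptions.

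Family relatives of these factors were measured beside them. Of 24 relatives, 11 were tested, of which 1 was higher and 3 were lower in oligodendrocytes than in neurons, where 12.4% and 10.7% of all genes were (median log2 fold change 0.11, against -0.16 for all genes). Against astrocytes, 0 were higher and 3 lower, beside 7.49% and 9.62% of all genes (median -0.27). Sox8, a SoxE factor like Sox10, was at 143 ± 47.0 CPM in oligodendrocytes, 17.6 ± 6.14 in neurons and 76.4 ± 13.4 in astrocytes. It was higher over neurons (3.41 ± 0.44, adjusted p = 4.28e-05) and not called over astrocytes (1.08 ± 0.41, adjusted p = 0.0816). Sox9, the third SoxE factor and known for its role in astrocytes, was at 6.41 ± 3.28, 4.34 ± 1.95 and 86.9 ± 12.8 CPM and was lower over astrocytes (-3.58 ± 0.56, adjusted p = 0.000234).

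The zinc finger relatives that were called were lower in oligodendrocytes. Myt1 and Myt1l, the 2 relatives of St18, were at 25 ± 13.5 and 36 ± 24.7 CPM in oligodendrocytes against 309 ± 21 and 236 ± 58.4 in neurons. Both were lower over neurons (-3.31 ± 0.53, adjusted p = 0.000306, and -2.42 ± 0.63, adjusted p = 0.0100). Zeb1, the paralog of Zeb2, was at 15.2 ± 12.9 CPM in oligodendrocytes, 101 ± 6.76 in neurons and 262 ± 95.1 in astrocytes. It was lower over both (-2.44 ± 0.61, adjusted p = 0.00808, and -3.97 ± 0.65, adjusted p = 0.000336). Zfp516, a relative of Zfp536, was at 17.9 ± 13.7 CPM in oligodendrocytes and 94.8 ± 25.1 in astrocytes (-2.31 ± 0.73, adjusted p = 0.0390).

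**Figure D3:**
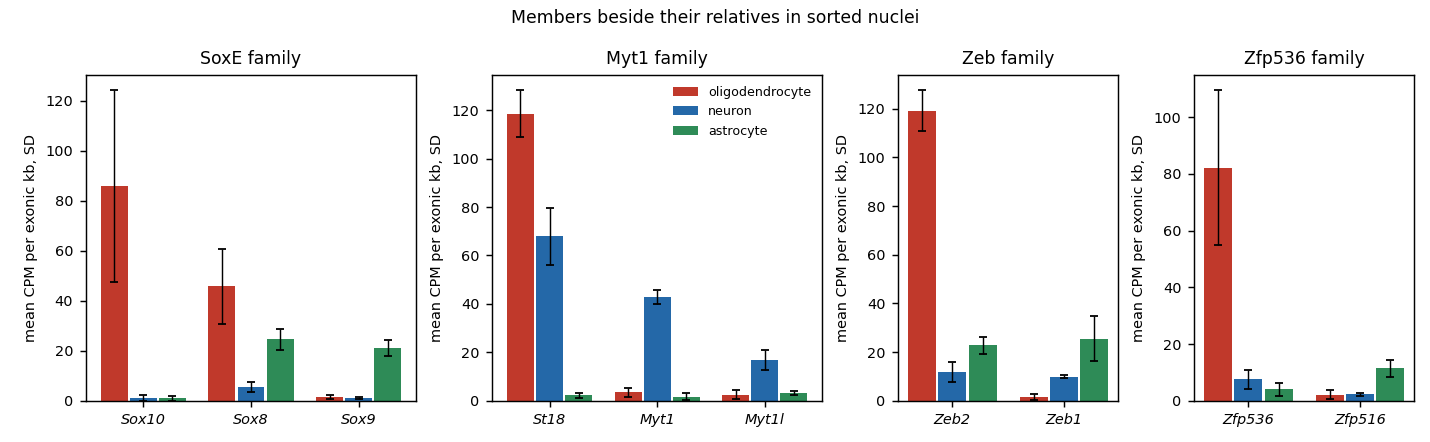
Bars are mean CPM per exonic kb in sorted nuclei with SD over 4 libraries, on axes that start at 0 and differ between panels. Sox10, St18, Zeb2 and Zfp536 have their highest bar in oligodendrocytes, and Sox9, Myt1, Zeb1 and Zfp516 have theirs in another type.

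Other regulators of the lineage formed a second list. Of 21 further regulators, 20 were tested, and 5 were higher in oligodendrocytes than in neurons and 2 than in astrocytes, with 0 lower in either (medians 0.33 and -0.06). Of all genes, 12.4% and 7.49% were higher, and the count over astrocytes is near that share. Zfp488, an oligodendrocyte zinc finger factor, was at 33.7 ± 8.07 CPM against 1.32 ± 0.733 in neurons and 0.506 ± 0.599 in astrocytes. It was higher over both (5.09 ± 0.73, adjusted p = 0.000113, and 5.89 ± 0.84, adjusted p = 0.000110). Tcf12, an E protein that pairs with basic helix-loop-helix factors, was also higher over both (2.19 ± 0.46, adjusted p = 0.00240, and 1.92 ± 0.45, adjusted p = 0.00621). Sox2 was higher over neurons (5.92 ± 0.87, adjusted p = 0.000140), as was Tcf7l2, a Wnt effector (2.14 ± 0.54, adjusted p = 0.00895), whose astrocyte mean of 206 ± 121 CPM lay above the oligodendrocyte mean of 82.6 ± 42.9 (-1.11 ± 0.52, adjusted p = 0.176).

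Another list held 15 genes of the Notch, Id, Sox and BMP pathways, most of them known to hold back oligodendrocyte differentiation. It also holds Smad6 and Smad7, which inhibit BMP signalling. Of its 11 tested genes, 7 were lower in oligodendrocytes than in astrocytes (9.62% of all genes were lower) and 1 was higher (median log2 fold change -3.39), while 1 was lower than in neurons (10.7% of all genes) and 1 higher (median -0.25). Hes5, a Notch effector, was at 0.698 ± 0.965 CPM in oligodendrocytes and 80.5 ± 31.5 in astrocytes (-6.44 ± 1.01, adjusted p = 0.000241). Bmpr1b (-5.53 ± 0.70), a BMP receptor, Sox6 (-4.15 ± 0.73), Id4 (-4.03 ± 0.73) and Id2 (-3.40 ± 0.68) were among the others. The gene that was higher was Smad7, which Zeb2 is known to induce. Smad7 was at 105 ± 69.4 CPM in oligodendrocytes, 14.6 ± 2.20 in neurons and 7.65 ± 7.39 in astrocytes (3.13 ± 0.74, adjusted p = 0.00596, and 3.59 ± 0.78, adjusted p = 0.00345).

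Myelin and maturation genes, many of them targets of Sox10 and Myrf, were higher in oligodendrocytes in 22 of 22 tested cases over neurons and 21 of 22 over astrocytes (medians 6.03 and 5.23). Mag, a myelin adhesion protein, was at 843 ± 186 CPM against 5.06 ± 2.40 in neurons (7.75 ± 0.48, adjusted p = 9.51e-08). Mobp (7.20 ± 0.52 over neurons), Opalin (7.73 ± 0.85 over astrocytes) and Fa2h, an enzyme of myelin lipids (7.14 ± 0.69 over astrocytes), were also among those called. By Pearson r of log2(CPM + 1) over the 12 sorted libraries, the genes outside the list most like Myrf were Fa2h (0.988), Mag (0.984) and Frmd4b. Those most like Olig1 were Phlpp1 (0.988), Dock5 and Trf, and those most like Sox10 were Josd2 (0.987), Gm10220 and Speer4a, the last 2 of multigene families whose counts are uncertain. Olig2 was most like Foxj1 (0.978), Nkx2-2 most like Slc5a11 (0.975), St18 most like Kcna1 (0.986), Zfp536 most like Eml1 (0.980), Sp7 most like Tex52 (0.995) and Zeb2 most like Erbin (0.978). With 3 groups, r is high for any gene that separates them in the same way.

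The second question was how sorted nuclei compare with presort nuclei of the same line. In the oligodendrocyte line 6 of 8 tested factors were higher after sorting (5.12% of 9520 genes), and all 6 did so without overlap between the groups (6% of genes). Sox10 met the filter on low counts here only with its sorted libraries, where it was high. Its call is therefore a description and not independent support. Sox10 was at 9.56, 15.4, 15.3 and 9.10 CPM in presort replicates 9, 11, 33 and 35, below every sorted library, with a log2 fold change of 5.13 ± 0.69 (adjusted p = 0.00171). Myrf was at 35.1, 34.6, 26.8 and 100 CPM before the sort and rose by 4.30 ± 0.59 (adjusted p = 0.00189). Olig1 was at 38.3, 38.5, 38.3 and 18.2 CPM and rose by 3.52 ± 0.56 (adjusted p = 0.00390). For Sox10, Myrf and Olig1, sorted and presort libraries were well apart.

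Zfp536 was at 86.1, 92.4, 84.3 and 127 CPM in presort nuclei of the oligodendrocyte line and rose by 3.55 ± 0.46 (adjusted p = 0.00170). Zeb2 was at 577, 543, 544 and 337 CPM and rose by 2.87 ± 0.40 (adjusted p = 0.00189). St18, at 360, 189, 383 and 305 CPM, rose by 1.88 ± 0.40 (adjusted p = 0.0155), a call lost without presort replicate 11, 33 or 35 (adjusted p = 0.0668, 0.0568 and 0.0651). Olig2, at 28.7, 30.8, 23.0 and 72.8 CPM before the sort, overlapped the sorted group through replicate 36 (1.52 ± 1.04, adjusted p = 0.436). Without that library its log2 fold change was 1.99 ± 0.39 (adjusted p = 0.00133). Nkx2-2, at 12.8, 0, 7.66 and 0 CPM, had 2.03 ± 1.23 (adjusted p = 0.373). Precursor markers summed to 921 to 1238 CPM before the sort and 118 to 262 after it, and 3 of 6 tested were lower. Microglia markers summed to 172 to 633 CPM before and 6.24 to 162 after, with 0 of 7 tested called. Their part in these differences was not tested.

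Here the TMM factors raise sorted over presort values by 0.57 on the log2 scale. With total counts alone, 297 genes were higher and 337 lower, against 487 and 308 with TMM and 593 and 1125 by DESeq2, and the same number of factors (6) was called higher. Sp7 was not tested in this comparison. Against 0 counts in the presort libraries of the line it was at least 5.24-fold higher in sorted nuclei.

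In the neuron line, several factors were lower after sorting. Of 7 tested, 4 were lower (5.1% of 11024 genes) and 1 was higher (1.27%). The 4 that were lower, Sox10, Myrf, Olig1 and Olig2, met the filter on low counts only with their presort libraries, where they were high. Their calls are therefore descriptions and not independent support. Olig1 was at 75.0, 71.8, 41.6 and 46.9 CPM in presort replicates 1, 3, 25 and 27 and at 3.32 to 8.35 after sorting (-3.41 ± 0.41, adjusted p = 9.67e-05). Myrf was at 88.6, 39.2, 41.6 and 64.0 CPM before and 0.763 to 10.9 after (-3.16 ± 0.55, adjusted p = 0.00229), and Olig2 at 61.3, 29.4, 41.6 and 12.8 before and 0 to 4.18 after (-4.04 ± 0.81, adjusted p = 0.00606). These 3 did not overlap between the groups (9.13% of genes were lower without overlap). Sox10, at 44.3, 22.9, 11.3 and 8.53 CPM before, was lower by a narrower margin (-2.61 ± 0.74, adjusted p = 0.0470), a call lost without any 1 of the presort replicates 1, 3, 25 and 27 (adjusted p = 0.265, 0.121, 0.0654 and 0.0642). Without any 1 of the sorted libraries Sox10 was not tested, so no fit that left out 1 library kept this call. Olig2 was not tested without any 1 of the sorted libraries either. Its call was kept in the 4 fits that left out 1 presort library (-4.26 to -3.57). St18 was the factor that was higher: 266, 238, 265 and 269 CPM before and 326 to 490 after (0.88 ± 0.23, adjusted p = 0.0299). The St18 call was lost in 5 of 8 fits that leave out 1 library and in the fit of 24 nuclear libraries (adjusted p = 0.121). Zfp536 (-0.87 ± 0.38, adjusted p = 0.215) and Zeb2 (-0.56 ± 0.28, adjusted p = 0.286) did not pass, although Zeb2, at 320 to 438 CPM before, did not overlap its sorted values. Markers of other cell types were lower as well: 19 of 21 tested myelin genes, 7 of 8 precursor markers, 6 of 9 microglia markers and 7 of 11 astrocyte markers. Their part in the differences of the factors was not tested.

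In the astrocyte line, 3 of 6 tested factors were lower after sorting (15.2% of 11026 genes) and 0 were higher (13.7%). Of these 3, Myrf and St18 met the filter on low counts only with their presort libraries, where they were high. The calls of both are therefore descriptions and not independent support. St18 was at 230, 303, 232 and 386 CPM in presort replicates 5, 7, 29 and 31 and at 7.44 to 22.3 after sorting (-3.94 ± 0.36, adjusted p = 1.58e-07). Myrf, at 40.6, 82.4, 50.1 and 58.7 CPM before, was also lower (-2.81 ± 0.43, adjusted p = 3.64e-05), as was Zfp536, at 433, 121, 103 and 105 CPM before (-2.28 ± 0.45, adjusted p = 0.000535). Olig1 (-0.23 ± 0.41, adjusted p = 0.755), Olig2 (0.90 ± 0.44, adjusted p = 0.144) and Zeb2 (-0.07 ± 0.23, adjusted p = 0.863) did not pass. Olig2 was at 40.6, 34.7, 23.8 and 8.39 CPM before and 19.5 to 52.1 after, so the groups overlapped, and without sorted astrocyte replicate 8 it passed (1.19, adjusted p = 0.0370). The signs of Olig1 and Zeb2 turned without presort replicate 7 and sorted replicate 30 (0.11 and 0.02). Of the marker lists, 15 of 22 tested myelin genes were lower and 1 was higher, 6 of 8 microglia, 5 of 7 endothelial and 6 of 10 neuron markers were lower, 12 of 12 astrocyte markers were higher, and of 7 precursor markers 3 were lower and 2 higher. Their part in the differences of the factors was not tested. With total counts alone, 1165 genes were higher and 2183 lower, against 1514 and 1679 with TMM.

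**Figure D4:**
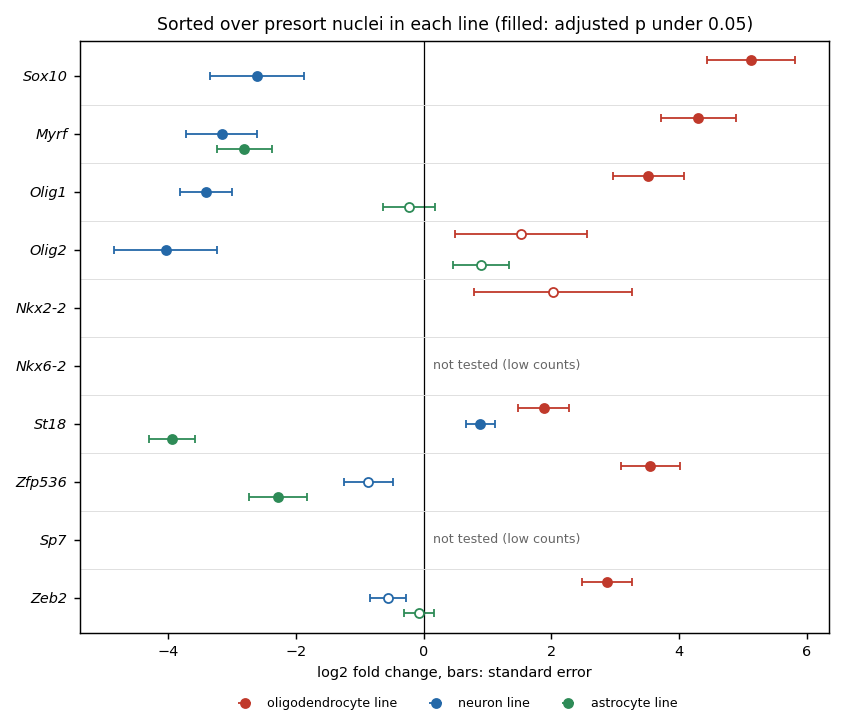
The x axis is the log2 fold change of sorted over presort nuclei of each line with its standard error, and filled points passed at an adjusted p under 0.05 in edgeR. All called points of the oligodendrocyte line lie to the right of 0, and those of the other lines to the left except St18 in the neuron line.

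The difference between lines was itself tested in 1 fit of 24 nuclear libraries. The change with sorting was larger in the oligodendrocyte than in the neuron line for 6 of 8 tested factors (8.81% of 12171 genes): Sox10 (by 7.77 ± 1.05 on the log2 scale), Myrf (7.50 ± 0.78), Olig1 (6.94 ± 0.69), Olig2 (5.62 ± 1.27), Zfp536 (4.45 ± 0.68) and Zeb2 (3.46 ± 0.41), at adjusted p from 2.45e-08 to 0.00238. For St18 the difference was 1.03 ± 0.44 (adjusted p = 0.119) and for Nkx2-2 4.82 ± 1.75 (adjusted p = 0.0599, and 0.0222 by DESeq2). Against the astrocyte line it was larger for 6 of 8 (7.01% of genes): Sox10 (8.49 ± 1.09), Myrf (7.11 ± 0.80), St18 (5.90 ± 0.49), Zfp536 (5.86 ± 0.71), Olig1 (3.78 ± 0.66) and Zeb2 (2.99 ± 0.41). For Olig2 (0.71 ± 1.20, adjusted p = 0.820) and Nkx2-2 (0.26 ± 1.35, adjusted p = 0.956) it did not pass. Both contrasts share the oligodendrocyte libraries. With total counts alone the splits of called genes were 727 larger and 1022 smaller against the neuron line and 578 and 808 against the astrocyte line, compared with 1072 and 879, and 853 and 780, with TMM.

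Before the sort, the 3 lines could be compared for 6 factors with enough counts (Myrf, Olig1, Olig2, St18, Zfp536 and Zeb2). By edgeR 0 of 6049 genes (0%) and 0 of the 6 factors differed among lines. At an unadjusted p under 0.05 there were 205 genes and 1 factor, Zeb2 (adjusted p = 0.999), and DESeq2 called 4 genes and 0 factors. All but 1 of these presort libraries held 147826 to 313720 counts, and the smallest difference they could show was not tested.

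Whole-brain presort nuclei and cytoplasm were compared with 12 and 2 libraries. Of 7 tested factors, Olig1, the factor without introns, was lower in presort nuclei (29.8% of 7728 genes were lower and 20.6% higher). It was at 13.5 to 82.4 CPM (mean 45.7) in presort nuclei and at 64.8 and 165 in cytoplasm, so the groups overlapped (-1.84 ± 0.37, adjusted p = 0.000338). Sox10, at 0 to 44.3 CPM in presort nuclei and 18.4 and 45.8 in cytoplasm, did not pass (-1.21 ± 0.54, adjusted p = 0.0660), and it passed without cytoplasm replicate 1 (-1.52, adjusted p = 0.0346). Zfp536 did not overlap, with 75.6 to 433 CPM in presort nuclei and 41.2 and 69.5 in cytoplasm, but did not pass (0.77 ± 0.50, adjusted p = 0.204). It was the 1 factor of 7 without overlap, where 22.3% of genes were higher without overlap, so this is not particular to it. The long genes depended on the library and the scaling. St18 was at 227 and 66.7 CPM in cytoplasm, and its log2 fold change was 0.30 ± 0.38 (adjusted p = 0.524) with both, 1.75 (adjusted p = 0.00146) without replicate 1 and -0.36 without replicate 2. Zeb2, at 635 and 257 CPM in cytoplasm, had -0.54 ± 0.32 (adjusted p = 0.164), and the value was 0.09 with total counts alone. TMM factors lower presort over cytoplasm values by 0.56 here, and with total counts alone 2491 genes were higher and 1460 lower, against 1595 and 2306. The cytoplasmic libraries came from 2 lines and sexes, and Snap25 was at 11412 CPM in replicate 1 and 3497 in replicate 2.

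Females and males were compared over the 12 sorted libraries in a model that also held the cell type. By edgeR 6 of 13029 genes (0.0461%) and 0 of the 9 tested factors differed, and 0 factors had an unadjusted p under 0.05, against 629 genes. DESeq2 also called 0 factors. The largest estimate was that of Olig2 (female minus male -1.29 ± 0.91, adjusted p = 0.876), whose 0 in oligodendrocyte replicate 36 falls among females.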

How the data were processed

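The authors deposited 1 table of read counts per gene for all 26 libraries. The labels' protocols give Trizol extraction, DNase treatment and amplification with the NuGEN Ovation V2 kit, and the submitters' processing notes name Trimmomatic, STAR, Bowtie2, bedtools and edgeR. Not given in the sources used here were the genome build, annotation, counted regions, strand setting and sort method. Gene symbols came from GENCODE M21. Counts were tested with edgeR 4.0.16 (quasi-likelihood, TMM factors, filterByExpr with a minimum count of 10, Benjamini-Hochberg adjustment over all tested genes, R 4.3.3), with DESeq2 1.42.0 as an alternative, in 11 contrasts. Contrasts among sorted types used the 12 sorted libraries, those within a line its 8 libraries, and the difference between lines 24. Standard errors are the log2 fold change over the root of F. CPM are not scaled by TMM. Named were the 10 factors, the 3 driver genes, up to 6 genes per list with the largest change among those called in oligodendrocytes over neurons or astrocytes (4 for myelin genes), 9 close relatives and partners whatever their values, and the 3 genes most like each factor. The overlapping and marker genes were named after their values were seen. Fits with total counts alone or without both libraries that stood apart were added after seeing the data. The factors and lists were chosen with earlier results of these data known, so list counts are descriptions. Replicates were separate mice, and no pair agreed within sampling noise (lowest chi-square per degree of freedom 1.97). Counting intervals and floors of 3 counts cover counting error only. Tests were checked on simulated data.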

Additional observations from a re-analysis of the deposited data

Results flagged for a closer look

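Among 56 pairs of a factor and a group of 4 libraries, 11 had a library far from the other 3 by Dixon's criterion at the 95% level. That level gives about 1 in 20 by chance for normally distributed values only, which CPM of low counts are not. Whether 11 exceeds chance was therefore not tested. Presort oligodendrocyte-line replicate 35 accounted for 4 of them, with Myrf at 100.1 CPM, Olig1 at 18.2, Olig2 at 72.8 and Zeb2 at 337. Among sorted libraries, Myrf stood apart at 22.3 CPM in astrocyte replicate 30 (3 counts), St18 at 326 CPM in neuron replicate 4 and Zeb2 at 110 CPM in neuron replicate 2. Among other presort libraries, Zfp536 stood apart at 433 CPM (64 counts) in astrocyte-line replicate 5, St18 at 238 CPM in neuron-line replicate 3, Nkx6-2 at 2.75 CPM in astrocyte-line replicate 29 and Nkx2-2 at 0 CPM in neuron-line replicate 27. The last 2 say nothing of the libraries beyond counting: Nkx2-2 had 1 count in each of the other 3, and replicate 29 had 9 counts of Nkx6-2 in 3274488, against 0 in libraries of 147826 to 238420.

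The change of sorted over presort nuclei differed between lines by an interaction test in edgeR. It was larger in the oligodendrocyte than in the neuron line for Sox10 (by 7.77 on the log2 scale), Myrf (7.50), Olig1 (6.94), Olig2 (5.62), Zfp536 (4.45) and Zeb2 (3.46). It was larger than in the astrocyte line for Sox10 (8.49), Myrf (7.11), Olig1 (3.78), St18 (5.90), Zfp536 (5.86) and Zeb2 (2.99).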

How the results depend on the processing

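No paired analysis was possible because the groups compared share fewer than 2 replicate numbers, and no label says which presort and sorted libraries came from the same mouse. Presort and sorted libraries of a line carry consecutive numbers (9 and 10), which were not read as pairs, and a fit on such pairs was not run. Of the factors' counts of calls, those over neurons fell to 4 and over astrocytes to 1 in females only. Neurons over astrocytes gave 2 higher in males only and also without both libraries that stood apart, and 0 lower in females only. In the neuron line 0 were higher in the fit of 24 libraries, and in the astrocyte line 1 was higher and 5 lower with no filter. Presort over cytoplasm gave 2 higher with total counts and 3 lower with no filter. Leaving out 1 library gave 8 to 10 higher over neurons, 7 to 9 over astrocytes, 1 to 1 higher and 3 to 4 lower in neurons than astrocytes, 5 to 7 higher in the oligodendrocyte line, 0 to 1 higher and 2 to 3 lower in the neuron line, 0 to 1 higher and 2 to 4 lower in the astrocyte line, 6 to 7 in each difference between lines, and 0 to 1 higher and 1 to 2 lower against cytoplasm. The sign turned in the following cases, at values that did not pass. In females only, Nkx2-2 over astrocytes was -0.10 and Sox10 in neurons over astrocytes -1.81, and in males only Myrf there was 0.29. With no filter Myrf against cytoplasm was -0.013, and with total counts Zeb2 against cytoplasm was 0.091 and Olig1 for sex -0.079. Leaving out 1 library, Sox10 in neurons over astrocytes ran from -0.64 (without neuron replicate 4) to 0.82. In the astrocyte line Olig1 ran from -0.43 to 0.11 (without presort replicate 7) and Zeb2 from -0.17 to 0.018 (without sorted replicate 30). Nkx2-2 in the difference between oligodendrocyte and astrocyte lines ran from -0.21 to 1.23, turning without presort oligodendrocyte-line replicate 11 or 35. Against cytoplasm Myrf ran from -0.0057 to 0.46, turning without presort oligodendrocyte-line replicate 35 or cytoplasm replicate 1, St18 from -0.36 (without cytoplasm replicate 2) to 1.75, and Zeb2 from -1.10 to 0.55 (without cytoplasm replicate 1). St18 without cytoplasm replicate 1 and Zeb2 without cytoplasm replicate 2 passed there. For sex, Sox10 ran from -1.24 to 0.14, Myrf from -0.68 to 0.050, Olig1 from -0.21 to 0.22 and St18 from -0.32 to 0.022. Over all genes, calls over neurons without oligodendrocyte replicate 36 were 2544 higher and 2263 lower, and over astrocytes 1588 and 1980. In females only they were 114 and 9, and 50 and 17. DESeq2 called 2359 lower over neurons and 1988 over astrocytes, 1125 lower in the oligodendrocyte line, 316 higher and 920 lower in the neuron line, 2694 higher against cytoplasm, and 57 and 10 for sex. In the fit of 24 libraries, the oligodendrocyte line had 1513 higher and 1552 lower, the neuron line 17 higher and the astrocyte line 816 higher. The cause of these differences was not tested. Presort depth limits the low factors: Nkx2-2, Nkx6-2 and Sp7 had too few counts there for most tests.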
